A study of Mus musculus with 4 samples.

Results

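The iron handling genes described here are 10 genes of the mouse that take up, release, store or export iron and haem or bind their carriers: Trf, Tfrc, Slc11a1, Hmox1, Cd163, Hp, Fth1, Ftl1, Slc40a1 and Lcn2. They were chosen by name from the 32285 genes in the matrix, and their levels were read in every cell type and in each of the 4 samples of a single-cell RNA-sequencing (scRNA-seq) experiment on tumour-infiltrating immune cells. All 10 were found. Tumours were grown from the mouse melanoma line YUMM1.7-OVA, which carries Braf V600E, lacks Cdkn2a and expresses the model antigen ovalbumin, under the skin of Rag2-/- mice 6 to 12 weeks old, which make no T or B cells of their own. All 4 groups received adoptive cell transfer (ACT) of OT-1 Luc CD8+ T cells on day 7, and live CD45+ cells were sorted from tumours isolated on day 10, 72 h after ACT.

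The NTT sample came from the line naive to targeted therapy (clone 3A6) and the RTT sample from the line resistant to it (clone 2B12). RTT_ROSA26 was the resistant line with control guides against the ROSA26 locus, and RTT_PTGS12KO was the same line after knockout of both Ptgs1 and Ptgs2, which encode the enzymes COX1 and COX2 that start prostaglandin synthesis. Both guide lines were made with an inducible Cas9, so the edits lie in the injected cancer cells and could not be checked in the sorted immune cells. The labels give 1 tumour per condition, but the study's legends speak of pooled tumours. This was not settled here, so each sample may stand for a single tumour or for a pool, and the word tumour below means the sample. The design gives 3 contrasts: NTT against RTT, RTT_PTGS12KO against RTT_ROSA26, and RTT_ROSA26 against RTT, which compares resistant tumours that both keep the targeted genes. The first and the last share the RTT sample, and the last 2 share RTT_ROSA26.

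Iron travels in blood bound to transferrin (Trf), and cells take it in by endocytosis of the transferrin receptor (Tfrc). Macrophages also recover iron from engulfed red cells through haem oxygenase, store it in ferritin (Fth1 and Ftl1) and release it through ferroportin (Slc40a1). Many of these transcripts are under the control of iron regulatory proteins, which bind a hairpin called the iron-responsive element (IRE): in the 5′ UTR it blocks translation when iron is scarce, and in the 3′ UTR of Tfrc it protects the transcript from decay.

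The hairpins are shown because 4 of the 10 genes carry them, in different places, and because a count of transcripts does not read the translational control of the other 3. A search of annotated transcripts looked for the loop CAGTG followed by A, C or T (capitals below), closed by 5 paired bases. Pairs of G with T were allowed. A C, at the place of the bulge, had to come just before the stem, and no pairing below it was required. The search found 4 matches in the 3′ UTR of Tfrc and 1 match each in the 5′ UTRs of Slc40a1, Fth1 and Ftl1. Such a match lies in the 5′ UTR of 23 of 21877 protein-coding genes (0.105%), in the 3′ UTR of 100 (0.457%) and in any part of the transcript of 222 (1.01%). A match is a description of letters and not a test of binding. Positions are of GRCm38 with the GENCODE M21 annotation, and sequences read 5′ to 3′ on the strand of the gene.
Tfrc, 3′ UTR, chr16:32631219-32631247, plus strand: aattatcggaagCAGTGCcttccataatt
Tfrc, 3′ UTR, chr16:32631598-32631626, plus strand: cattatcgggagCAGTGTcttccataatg
Tfrc, 3′ UTR, chr16:32631663-32631691, plus strand: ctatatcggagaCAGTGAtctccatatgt
Tfrc, 3′ UTR, chr16:32631710-32631738, plus strand: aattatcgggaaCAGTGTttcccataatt
Slc40a1, 5′ UTR, chr1:45925465-45925493, minus strand: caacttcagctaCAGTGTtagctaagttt
Fth1, 5′ UTR, chr19:9982732-9982760, plus strand: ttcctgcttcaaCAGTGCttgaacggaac
Ftl1, 5′ UTR, chr7:45459779-45459807, minus strand: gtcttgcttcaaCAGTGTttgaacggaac

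The matrix held 33368 cells, between 6836 and 10296 per sample, with median UMI counts per cell of 7292 in NTT and 12219 to 13280 in the resistant tumours. Cells of the 4 samples were pooled before loading, so any RNA free in a load could enter droplets of all of them. No barcode of a load was found in more than 1 sample. The 17 cell type names are the authors'. Monocyte_1, Infl_Mono and Monocyte_3 were summed as monocytes, and TAM_C1q, TAM_Spp1, TAM_cycling, TAM_H2Ab1 and Ctsk_Macro as macrophages. The small cluster named Macro, led by Retnla, Ccl8 and Lyve1, was kept apart. Between 8 and 10 of 10 monocyte markers in the monocyte clusters, 12 of 12 macrophage markers in the 4 TAM clusters and 5 of 5 osteoclast-type markers in Ctsk_Macro lay above the median of all types, although no macrophage marker was among the 10 leading genes of TAM_cycling or TAM_H2Ab1 and interferon-stimulated genes led Infl_Mono. Myofibrobl was low in Ptprc, the gene of CD45, and is named only in passing. Levels are given as CPM, the UMIs of a gene per 1000000 UMIs summed over a cell type or class of a sample, for groups of at least 50 cells. Each UMI counts 1 transcript at its 3′ end, so gene length does not enter the levels. Other differences between genes in how they are counted remain where levels of different genes are set side by side. With 1 sample per group no test was possible. Intervals are 95% intervals of the counting error and hold no variation between tumours, and ranges over the 3 loads given below are repeat runs of the same pooled cells. Cell types were clustered on genes of these same cells, which may include some of these 10, so differences between cell types are descriptions.

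**Figure D1:**
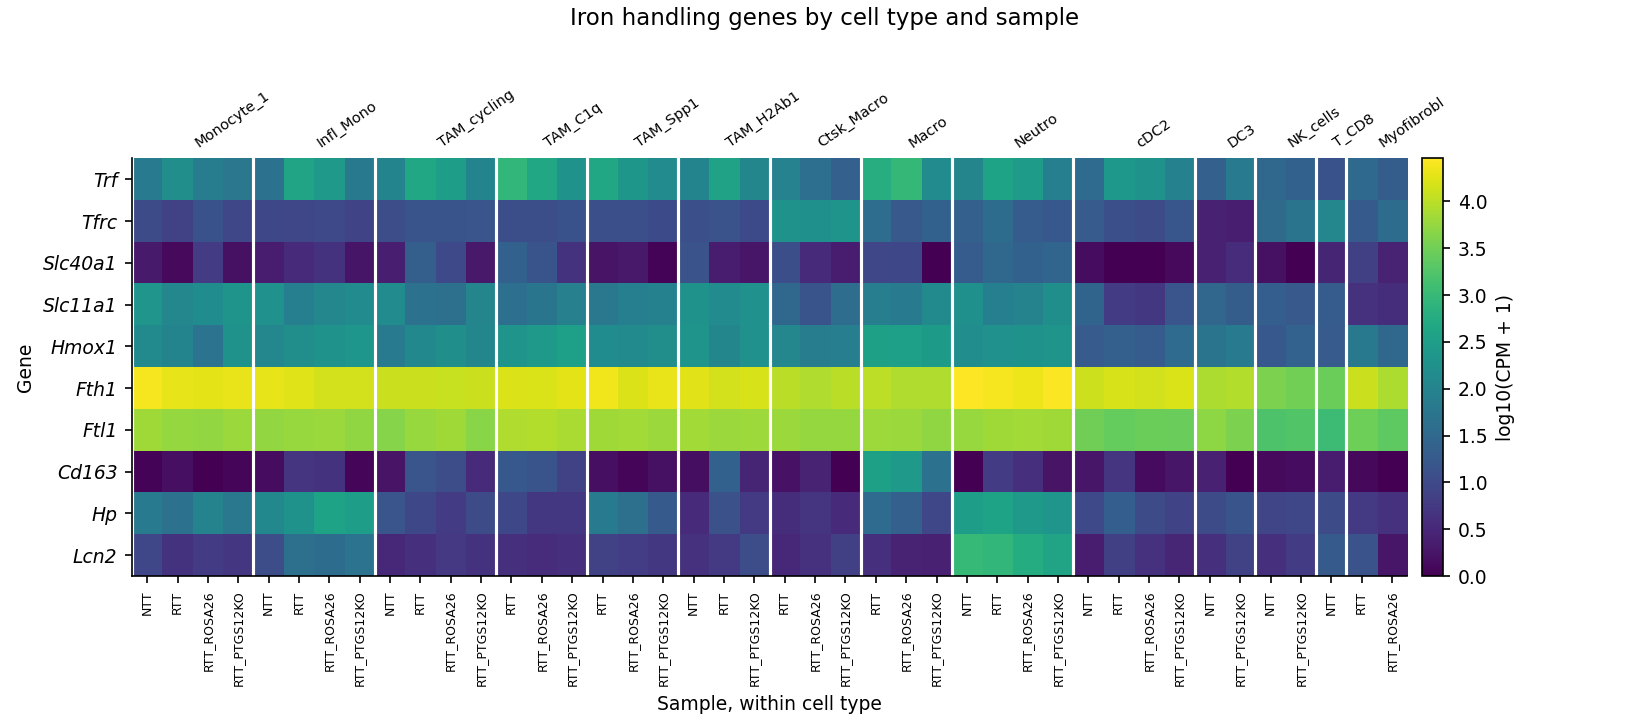
Levels of the 10 iron handling genes as log10(CPM + 1), with genes in rows and, in columns, each sample within each cell type that held at least 50 cells in it. Fth1 and Ftl1 are high in every column, Lcn2 stands out in Neutro, Cd163 in Macro, and Tfrc in Ctsk_Macro and T_CD8.

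Trf, transferrin itself, lies on chromosome 9 from 103204001 to 103230444 and encodes the protein that carries iron in plasma. It was highest in the resistant tumours and low in the NTT and knockout tumours. In macrophages it was at 145 CPM in NTT, 663 CPM in RTT, 335 CPM in RTT_ROSA26 and 130.2 CPM in RTT_PTGS12KO. In monocytes it was at 61.9, 221, 175 and 57.7 CPM in the same order. The loads of the 4 samples did not overlap in macrophages except for NTT (108 to 171 CPM) and RTT_PTGS12KO (126 to 133 CPM).

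In NTT against RTT, Trf was 4.59-fold lower in macrophages (interval 4.23 to 4.98) and 3.58-fold lower in monocytes (3.34 to 3.83). Knockout of Ptgs1 and Ptgs2 went with a 2.57-fold lower level in macrophages (2.52 to 2.63) and a 3.02-fold lower level in monocytes (2.58 to 3.53) than in RTT_ROSA26. The resistant controls differed too: RTT_ROSA26 was 1.98-fold lower than RTT in macrophages (1.96 to 2.01) and 1.27-fold lower in monocytes (1.08 to 1.49). The resistant controls thus stood 1.98-fold apart in macrophages, where knockout went with 2.57-fold, and the Trf of RTT_ROSA26 lay between that of RTT and RTT_PTGS12KO in both classes.

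The clusters that made up macrophages differed between the samples. TAM_H2Ab1 (192 cells) and TAM_cycling (79 cells) held most of the 308 macrophages of NTT, whereas TAM_C1q (3412 cells) and TAM_Spp1 (2057 cells) held most of the 6734 in RTT. Trf was therefore also compared within cell types. It was at least 2-fold lower in NTT than in RTT in 6 of the 6 types with 50 cells in both, from 2.37-fold in Monocyte_1 to 8.47-fold in Infl_Mono. TAM_cycling stood at 102 CPM in NTT and 460.1 CPM in RTT, and TAM_H2Ab1 at 102 and 369 CPM. On knockout, Trf was lower than in RTT_ROSA26 with an interval clear of no change in 8 of 9 types and at least 2-fold lower in 6. The widest gap was in Macro, at 925 CPM in RTT_ROSA26 and 142 CPM in RTT_PTGS12KO (6.53-fold lower, 5.57 to 7.69). The 12 macrophage markers moved with it in Macro, at 38767 CPM in RTT, 39138 CPM in RTT_ROSA26 and 10055 CPM in RTT_PTGS12KO, and Apoe alone at 21692, 22913 and 3041 CPM. Their part in this gap was not tested. The narrowest gap was in Monocyte_1, at 72.8 and 56.7 CPM (1.28-fold lower, 0.864 to 1.84), where RTT_ROSA26 held only 54 cells. RTT_ROSA26 was below RTT in 9 of 10 types and 1.52-fold above it in Macro (1.38 to 1.68).

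**Figure D2:**
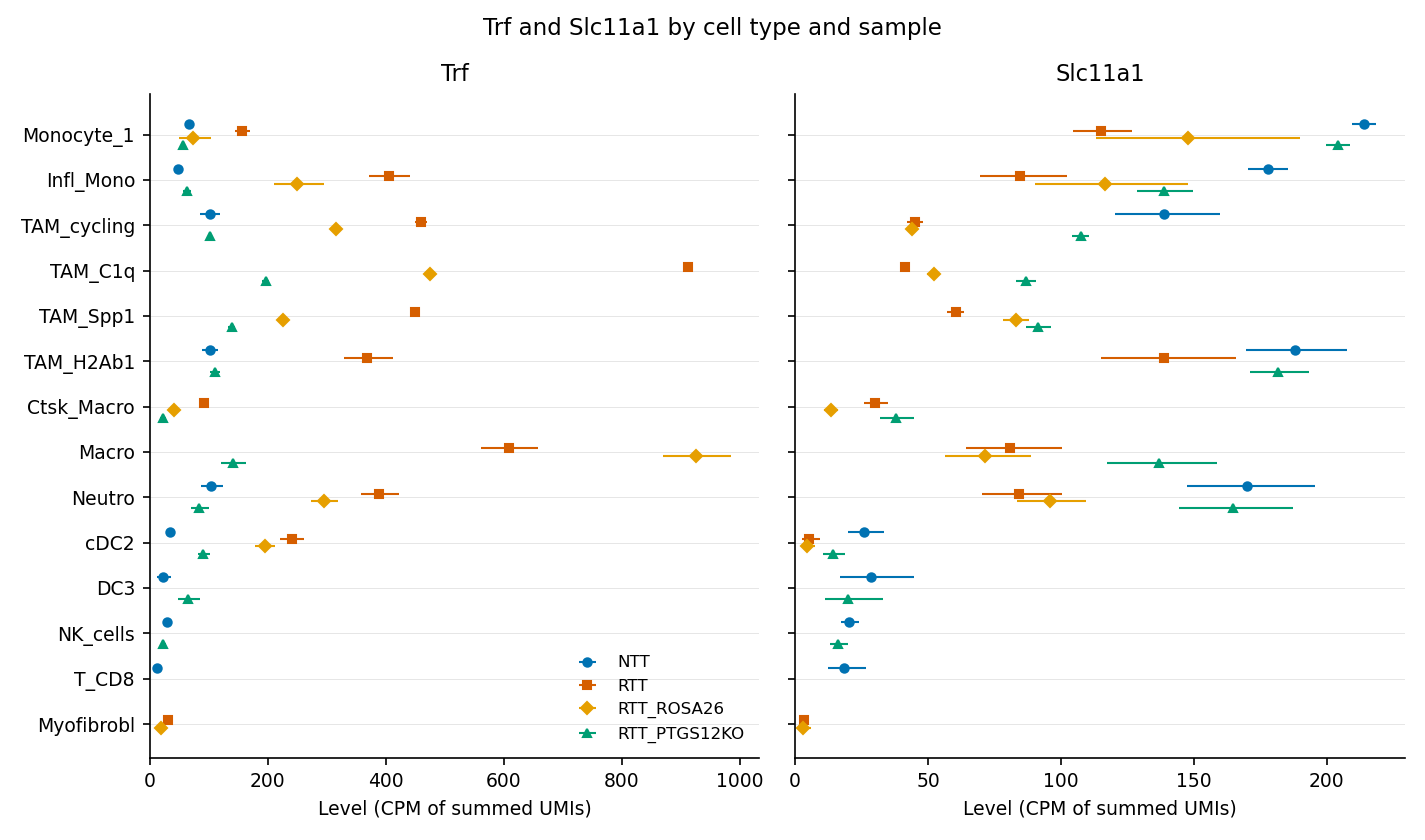
Levels of Trf (left) and Slc11a1 (right) in CPM by cell type, 1 point per sample with at least 50 cells, with exact Poisson 95% intervals of the counts. Trf was highest in RTT in TAM_C1q, at 912 CPM, and the points of NTT and RTT_PTGS12KO lie to the left for Trf and to the right for Slc11a1 in most types.

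By the median over samples Trf was highest in Macro (142 to 925 CPM) and TAM_C1q (196 to 912 CPM), whose ranges overlapped. TAM_C1q was at 912, 475 and 196 CPM in RTT, RTT_ROSA26 and RTT_PTGS12KO. TAM_Spp1 was at 449.6, 227 and 139 CPM, and Ctsk_Macro, the cluster with osteoclast-type markers, at 92.5, 41.9 and 22.5 CPM. The order RTT, RTT_ROSA26, RTT_PTGS12KO was the same in all 3 of these clusters, with no overlap of their intervals. Macrophages held 95.3% of all Trf UMIs in RTT, 92.7% in RTT_ROSA26 and 78.3% in RTT_PTGS12KO, whereas in NTT monocytes held 74.5% of them and macrophages 13.7%. Beside these shares, macrophages were 84.5%, 87.7% and 50.6% of the cells of RTT, RTT_ROSA26 and RTT_PTGS12KO, and in NTT monocytes were 80.1% and macrophages 3.73%.

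Cells with a Trf UMI were counted after thinning each cell to 3000 UMIs, which left out 2 to 38 macrophages and 6 to 162 monocytes per sample. The share among macrophages was 26.1% (exact binomial interval 21.3 to 31.4%) in NTT. RTT reached 64.9% (63.8 to 66.1%), RTT_ROSA26 50.2% (48.9 to 51.5%) and the knockout tumour 26.9% (25.7 to 28.1%). Unthinned shares were 56.5%, 85.5%, 79.5% and 63.1%. NK cells, which should lack transferrin, had a Trf UMI in 7.25% of 676 thinned cells in NTT and 8.31% of 301 in RTT_PTGS12KO. Median depths before thinning were 7669 UMIs in NK cells and 11598 in macrophages of NTT, and 15524 and 15570 in RTT_PTGS12KO. The few NK cells of the resistant controls had higher shares, 25.0% of 12 cells in RTT (5.49 to 57.2%) and 30.4% of 23 cells in RTT_ROSA26 (13.2 to 52.9%). The monocyte shares of 28.5% in RTT and 38.4% in RTT_ROSA26 lie within those intervals, as does the macrophage share of RTT_ROSA26, so by shares these could not be told from background. The macrophage share of RTT and the TAM_C1q share of RTT_ROSA26 (65.1%, 63.1 to 67.1%) lay above them. No cDC1 held a Trf UMI after thinning in any sample, for which the exact interval allows a share of up to 10.9% among the 32 cells of NTT and 9.49% among the 37 of RTT_PTGS12KO. Before thinning cDC1 held 1, 6, 3 and 8 Trf UMIs in NTT, RTT, RTT_ROSA26 and RTT_PTGS12KO, so these limits hold for thinned cells only.

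Macrophage transcripts moved with Trf in some of these groups and not in others. The 12 macrophage markers summed to 19348 CPM in macrophages of NTT, 43818 CPM in RTT, 34558 CPM in RTT_ROSA26 and 23698 CPM in RTT_PTGS12KO, and all 12 were detected in each. In neutrophils they summed to 6263, 23777, 26223 and 10632 CPM, and Trf there was at 105, 389, 295 and 84.1 CPM. In Infl_Mono the sums were 5420, 30235, 13520 and 4704 CPM beside Trf levels of 47.9, 405, 250.4 and 63.3 CPM. The directions differed in neutrophils between the controls, where the markers were higher and Trf lower in RTT_ROSA26 than in RTT, and in Ctsk_Macro on knockout, where the markers were at 9444 CPM in RTT_ROSA26 and 10621 CPM in RTT_PTGS12KO and Trf at 41.9 and 22.5 CPM. Their part in the Trf differences was not tested. Over 42 groups of cell type and sample, the genes most like Trf in log2(CPM + 1) among 7096 were Nxpe5 (Pearson r = 0.93), Mrc1 (r = 0.89), a mannose receptor of macrophages, and Tcn2 (r = 0.88), a carrier of vitamin B12. These groups share libraries and clustering, so the correlations here and below are descriptions only.

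Tfrc, the transferrin receptor, lies on chromosome 16 from 32608920 to 32632794 and was highest in clusters other than those that led for its ligand. Ctsk_Macro held 197 CPM in RTT, 172 CPM in RTT_ROSA26 and 201 CPM in RTT_PTGS12KO, and T_CD8 held 117 CPM in NTT. These were the highest levels among groups of at least 50 cells, where T_CD8 had 1 sample, with 93 cells and 182 Tfrc UMIs. The 45 T_CD8 cells of RTT_PTGS12KO, under this minimum, held 200 Tfrc UMIs, so the order of Ctsk_Macro and T_CD8 was not settled. NK cells followed at 34.3 CPM in NTT and 51.4 CPM in RTT_PTGS12KO, and the other types lay between 1.34 and 38.0 CPM. Proliferating cells are known to carry many transferrin receptors. The 10 genes of S and M phase summed to 2122 CPM in T_CD8 of NTT and to 1328 and 2442 CPM in the NK cells, and to 347 to 539.7 CPM in Ctsk_Macro. TAM_cycling, at 1456 to 2149 CPM of these genes, held 10.53 to 14.1 CPM of Tfrc. Their part in the Tfrc levels was not tested.

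In Ctsk_Macro, where markers of bone-resorbing osteoclasts (Ctsk, Mmp9, Acp5, Atp6v0d2) lead, a Tfrc UMI was found in 34.5% of 328 thinned cells of RTT, 33.0% of 400 of RTT_ROSA26 and 31.0% of 187 of the knockout tumour. The unthinned shares were 73.6%, 76.1% and 70.2%. Knockout was 1.17-fold above RTT_ROSA26 in Ctsk_Macro (1.07 to 1.28), and RTT_ROSA26 was 1.15-fold below RTT (1.06 to 1.24). In macrophages as a class Tfrc was at 15.7, 22.8, 25.8 and 20.5 CPM in NTT, RTT, RTT_ROSA26 and RTT_PTGS12KO, and in monocytes at 6.73 to 9.98 CPM. No contrast reached 2-fold in either class. The genes closest in pattern were Cmas (r = 0.83), Arsb (r = 0.81) and mt-Nd5 (r = 0.80).

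**Figure D3:**
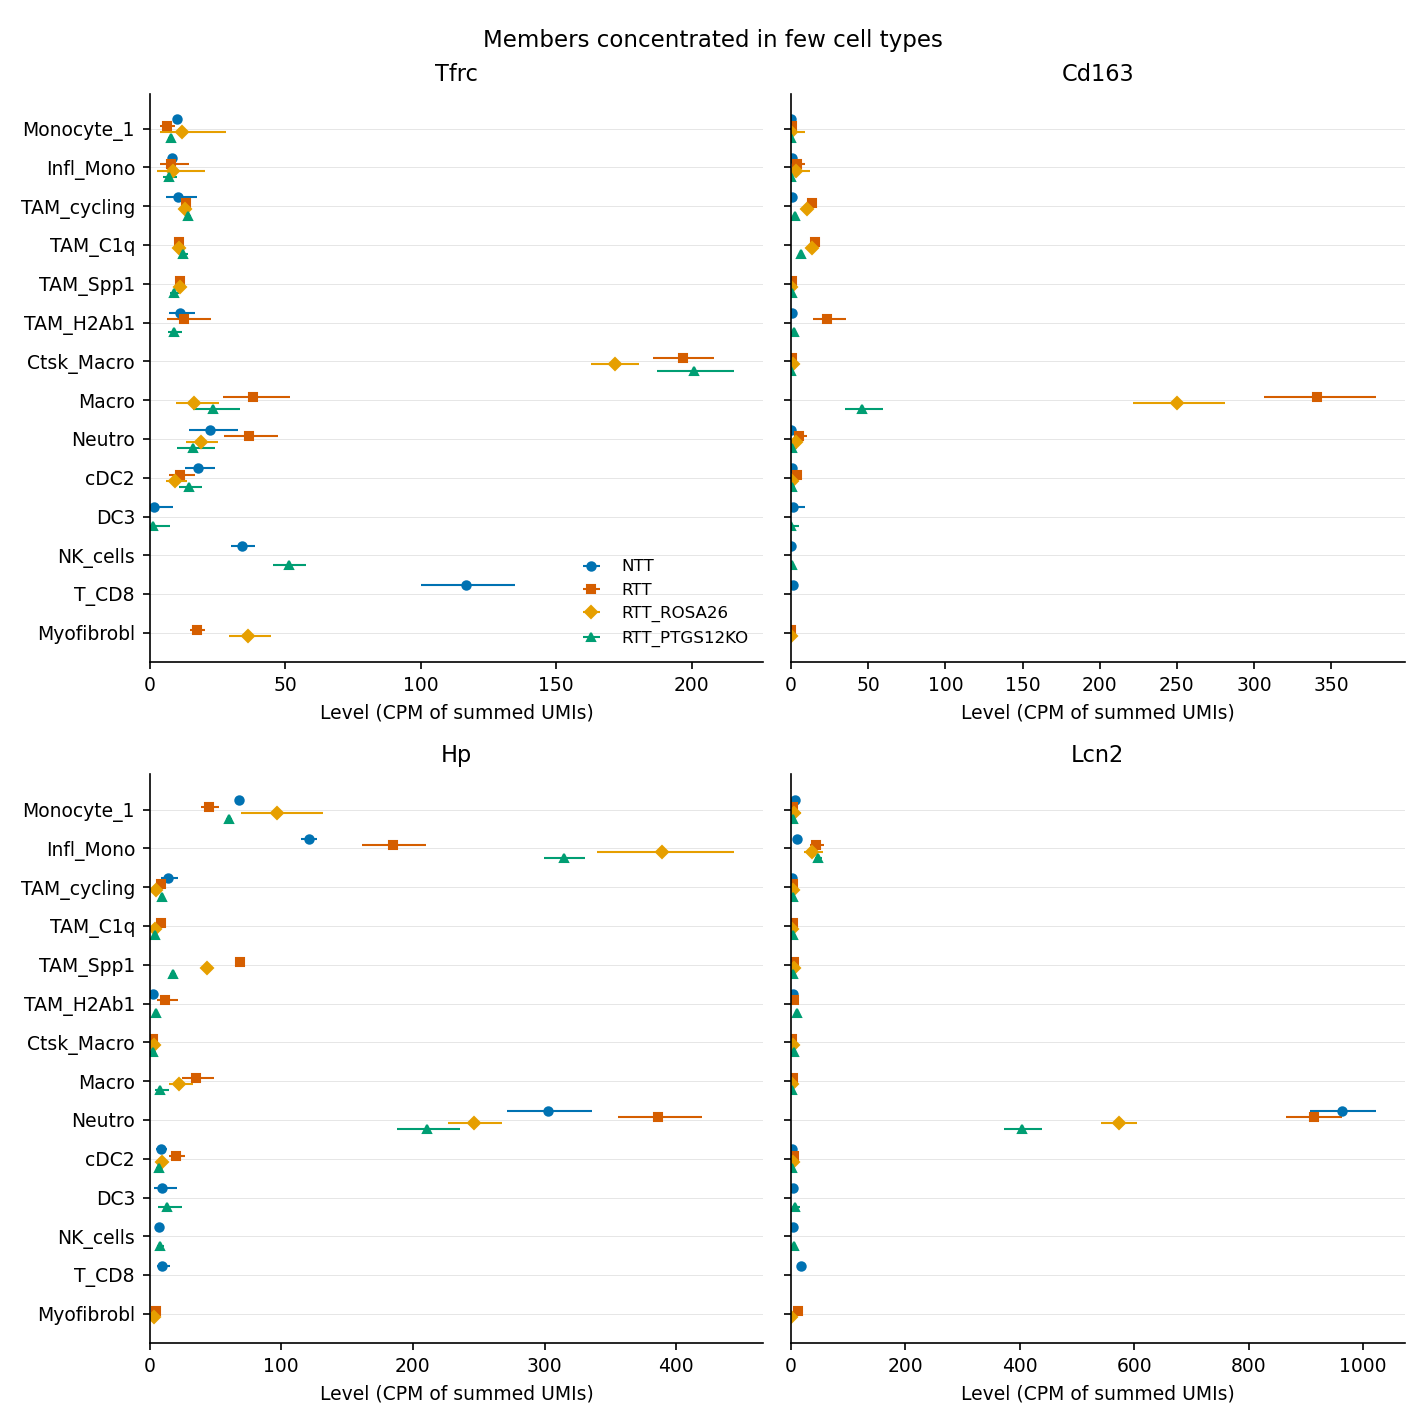
Levels of Tfrc, Cd163, Hp and Lcn2 in CPM by cell type, 1 point per sample with at least 50 cells, with exact Poisson 95% intervals. Each gene is high in 1 or 2 cell types, such as Lcn2 in Neutro at 405 to 963 CPM and Cd163 in Macro at 46.2 to 341 CPM.

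Slc11a1, known as NRAMP1, pumps iron and manganese out of the phagosome and lies on chromosome 1 from 74375195 to 74386062. Mice of the C57BL/6 background carry an allele whose protein does not work, so a transcript level says nothing of transport here. In both classes Slc11a1 was higher in NTT and RTT_PTGS12KO than in the resistant controls, the reverse of Trf. Macrophages held 153 CPM in NTT, 46.7 CPM in RTT, 49.7 CPM in RTT_ROSA26 and 101 CPM in RTT_PTGS12KO. Monocytes held 206, 107, 129 and 197 CPM. The intervals of NTT and RTT_PTGS12KO did not overlap those of the resistant controls in either class.

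Slc11a1 was 3.28-fold higher in NTT than in RTT in macrophages (3.01 to 3.57) and 1.92-fold higher in monocytes (1.76 to 2.10). With TAM_H2Ab1 and TAM_cycling weighted equally the log2 ratio in macrophages was 0.82 in place of 1.69, below the 2-fold level. The 10 monocyte markers summed to 1981 CPM in macrophages of NTT, 1261 CPM in RTT, 831 CPM in RTT_ROSA26 and 1108 CPM in RTT_PTGS12KO, the same order within each of the 2 comparisons as Slc11a1. In monocytes they summed to 7844, 3780.4, 7898 and 6012 CPM, higher in NTT than RTT like Slc11a1 but lower on knockout, where Slc11a1 was higher. Their part in the Slc11a1 differences was not tested. The knockout tumour was 2.03-fold above RTT_ROSA26 in macrophages (1.96 to 2.11), a log2 ratio of 1.01 that fell below the 2-fold level in 5 of 11 alternatives, to 0.74 with cell types weighted equally, and 1.53-fold above it in monocytes (1.28 to 1.83). The resistant controls differed by 1.07-fold in macrophages (1.02 to 1.11) and 1.20-fold in monocytes (0.982 to 1.46), less than either of the other contrasts. Within cell types it was higher in NTT with an interval clear of no change in 6 of 6 types, from 1.36-fold in TAM_H2Ab1 to 5.03-fold in cDC2, and at least 2-fold in 4. On knockout it was higher in this sense in 7 of the 8 types tested, from 1.10-fold in TAM_Spp1 to 2.84-fold in Ctsk_Macro, and at least 2-fold in 2 of them. Infl_Mono was the exception (1.19-fold, 0.927 to 1.56), and cDC2 lay under the minimum level with 12 UMIs in RTT_ROSA26. Ctsk_Macro was low, at 30.2, 13.4 and 38.0 CPM in RTT, RTT_ROSA26 and RTT_PTGS12KO.

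After thinning, macrophages with a Slc11a1 UMI were 33.7% (NTT), 12.9% (RTT), 15.3% (RTT_ROSA26) and 23.5% (RTT_PTGS12KO) of the class, against 4.44% of NK cells in NTT and 5.32% in RTT_PTGS12KO. Unthinned macrophage shares were 75.0%, 39.9%, 44.9% and 64.5%. The share of macrophages was above that of NK cells in each sample with enough NK cells, at the depths given for Trf. By level, TAM_H2Ab1 (139 to 188 CPM), Monocyte_1 (115 to 214 CPM), Neutro (84.3 to 170.2 CPM) and Infl_Mono (84.8 to 178 CPM) came first, with overlapping ranges. Hk3 (r = 0.91), Apobec1 (r = 0.90) and Cndp2 (r = 0.90) were closest in pattern.

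Hmox1, haem oxygenase 1, breaks haem into biliverdin, carbon monoxide and iron, and lies on chromosome 8 from 75093621 to 75100589. In macrophages it varied little between samples, at 152 CPM in NTT, 168 CPM in RTT, 186 CPM in RTT_ROSA26 and 179 CPM in RTT_PTGS12KO. Monocytes were at 127, 118, 134 and 197 CPM, with RTT_PTGS12KO 1.47-fold above RTT_ROSA26 (1.24 to 1.76), though the loads of RTT_ROSA26 spanned 59.5 to 236 CPM and took in all those of the knockout. In Monocyte_1 the knockout tumour stood at 195 CPM against 48.5 CPM in RTT_ROSA26, a 4.02-fold difference (2.60 to 6.58) that rests on 20 UMIs in the 54 cells of RTT_ROSA26. NTT and RTT stood at 129 and 104 CPM there.

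Among cell types Hmox1 was highest in Macro (266 to 336 CPM) and TAM_C1q (203 to 333 CPM) and lowest in T_CD8, NK cells and cDC2, at 15.7 to 35.2 CPM. In TAM_C1q it was at 203 CPM in RTT, 261 CPM in RTT_ROSA26 and 333 CPM in RTT_PTGS12KO, 1.28-fold higher on knockout (1.24 to 1.32), whereas in TAM_cycling it was 1.50-fold lower on knockout (1.44 to 1.55). Haemoglobin of red cells is the main source of haem for macrophages. The 5 red-cell genes, globins and Alas2, summed to 2.21, 135, 23.3 and 132 CPM in macrophages of NTT, RTT, RTT_ROSA26 and RTT_PTGS12KO, and to 101, 8.36, 4.99 and 115 CPM in monocytes. Alas2 was at 0 in macrophages of NTT, and Alas2, Hba-a2 and Hbb-bt were at 0 in monocytes of RTT_ROSA26. Their part in the Hmox1 values was not tested. Ftl1-ps1 (r = 0.88), Ctsb (r = 0.88) and Adgre1 (r = 0.88) were most like Hmox1, so a row that shares reads with ferritin light chain and a gene of macrophages were among them.

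Cd163, the scavenger receptor for haemoglobin bound to haptoglobin, lies on chromosome 6 from 124304656 to 124330527. It marked the cluster Macro, for whose check it was itself 1 of 6 markers. Macro held 341 CPM in RTT, 250.1 CPM in RTT_ROSA26 and 46.2 CPM in RTT_PTGS12KO, and 34 UMIs in the 21 cells of NTT. The knockout tumour was 5.42-fold below RTT_ROSA26 (4.08 to 7.30), and RTT_ROSA26 was 1.36-fold below RTT (1.16 to 1.60). The other 5 resident-type markers summed to 1884 CPM in RTT, 2841 CPM in RTT_ROSA26 and 1735 CPM in RTT_PTGS12KO in Macro. The highest single marker held 713, 904 and 1357 CPM of these sums, so 1 gene made up most of the sum on knockout. The red-cell genes summed to 5.85, 1.81 and 272 CPM, and the macrophage markers were lower on knockout as given for Trf. Their part in the Cd163 difference was not tested. The loads of RTT_PTGS12KO ranged from 5.69 to 90.6 CPM and those of RTT_ROSA26 from 125 to 341 CPM, so they did not overlap. After thinning, a UMI was left in 25.8% (17.4 to 35.7%) of 97 Macro cells of RTT, in 23.2% (16.1 to 31.6%) of 125 from RTT_ROSA26 and in 7.29% (2.98 to 14.4%) of 96 from the knockout tumour, against 36.4%, 34.6% and 11.5% unthinned. NK cells were at 0.148% in NTT and had none among 301 cells in RTT_PTGS12KO, which allows up to 1.22%. Median depths in Macro were 9252, 8421.5 and 12731 UMIs.

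Macro made up 1.24% of cells in RTT and 24.2% of the Cd163 UMIs, and in RTT_ROSA26 1.90% of cells and 23.0% of UMIs. In the macrophage class Cd163 was low, at 0.984 CPM (4 UMIs) in NTT, 10.9 CPM in RTT, 9.20 CPM in RTT_ROSA26 and 3.04 CPM in RTT_PTGS12KO. NTT was 11.1-fold below RTT with a wide interval (4.32 to 40.8), and the knockout 3.03-fold below RTT_ROSA26 (2.64 to 3.48). In both contrasts the mean lies under the minimum mean level of 10 CPM used for counts of genes below. TAM_C1q, the largest source in the class, held 15.7, 13.4 and 6.65 CPM in RTT, RTT_ROSA26 and RTT_PTGS12KO. Igf1 (r = 0.90), Cbr2 (r = 0.87) and Ap2a2 (r = 0.87) were most alike.

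Hp, haptoglobin, binds free haemoglobin for uptake by CD163 and lies on chromosome 8 from 109575128 to 109579172. Its level was highest in neutrophils and Infl_Mono. Neutro held 303 CPM in NTT, 387 CPM in RTT, 247 CPM in RTT_ROSA26 and 211 CPM in RTT_PTGS12KO. Infl_Mono held 121, 185, 390 and 315 CPM, and Monocyte_1 67.7, 45.4, 97.0 and 60.2 CPM. By total, macrophages held 66.4% of Hp UMIs in RTT and 52.2% in RTT_ROSA26, where they were 84.5% and 87.7% of cells, while monocytes held 89.0% in NTT and 75.8% in RTT_PTGS12KO. The 2 leading types by level, Neutro and Infl_Mono, overlapped over samples, and Macro, at 7.83 to 35.1 CPM, was below both.

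In monocytes Hp was at 80.2 CPM in NTT, 81.6 CPM in RTT, 271 CPM in RTT_ROSA26 and 91.1 CPM in RTT_PTGS12KO. RTT_ROSA26 stood apart, 3.33-fold above RTT (2.84 to 3.89) and 2.98-fold above the knockout (2.62 to 3.37), on the 272 UMIs of 144 monocytes. Infl_Mono, the type with more Hp, made up 86 of those 144 cells against 635 of 4015 in RTT_PTGS12KO. Within Infl_Mono the knockout was 1.24-fold below RTT_ROSA26 (1.07 to 1.42) and within Monocyte_1 1.61-fold below it (1.15 to 2.20). RTT_ROSA26 was 2.11-fold above RTT in Infl_Mono (1.75 to 2.55) and 2.13-fold above it in Monocyte_1 (1.47 to 3.03). The 9 neutrophil genes summed to 340, 380, 356 and 320 CPM in monocytes of NTT, RTT, RTT_ROSA26 and RTT_PTGS12KO. In Monocyte_1 they summed to 315, 266, 422 and 254 CPM, highest in RTT_ROSA26 as Hp was, and in Infl_Mono to 419.7, 704, 303 and 802 CPM, lowest there. Their part in the Hp values was not tested. The loads of RTT_ROSA26 spanned 219 to 357 CPM of Hp in monocytes, clear of the 79.8 to 105 CPM of the knockout.

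In macrophages Hp was at 11.1, 22.3, 9.97 and 8.85 CPM. TAM_Spp1 was at 68.7, 44.0 and 17.6 CPM in RTT, RTT_ROSA26 and RTT_PTGS12KO and held 1591 of 2180, 603 of 993 and 277 of 796 macrophage Hp UMIs. In RTT_PTGS12KO TAM_cycling held more, with 382. RTT_ROSA26 was 2.24-fold below RTT in macrophages (2.07 to 2.41) and NTT 2.01-fold below it (1.50 to 2.77). Knockout differed from RTT_ROSA26 by 2.50-fold in TAM_Spp1 (2.16 to 2.89, lower) and by 1.89-fold in TAM_cycling (1.59 to 2.24, higher). Shares of Infl_Mono with an Hp UMI after thinning were 19.6%, 36.0%, 54.2% and 49.0% in NTT, RTT, RTT_ROSA26 and RTT_PTGS12KO, against 1.04% and 1.33% of NK cells in NTT and RTT_PTGS12KO. Unthinned they were 28.96%, 49.3%, 65.1% and 65.4%, at median depths of 5961 to 7452 UMIs. Chil3 (r = 0.90) and Mmp8 (r = 0.89) were most alike.

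Fth1 and Ftl1, the heavy and light chains of ferritin, lie on chromosome 19 from 9980598 to 9985098 and on chromosome 7 from 45457944 to 45459884. The heavy chain oxidises iron on entry and the light chain helps to form the core. Fth1 ranked between 1 and 3 among all genes in macrophages and monocytes of each sample. Its level in macrophages was 16514 CPM in NTT, 17150 CPM in RTT, 14062 CPM in RTT_ROSA26 and 15724 CPM in RTT_PTGS12KO, and in monocytes 23731, 19310, 16169 and 19728 CPM. Ftl1 was at 6140.5, 7451, 7393 and 5936 CPM in macrophages and 6331, 5708, 5915 and 6145 CPM in monocytes. Together they took 2.15% to 2.46% of all UMIs in macrophages and 2.21% to 3.01% in monocytes.

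Neither chain reached 2-fold in any contrast of either class or in any matched cell type. Fth1 was lower in RTT_ROSA26 than in RTT in 10 of 10 types, by 1.02- to 1.51-fold, and in macrophages by 1.22-fold (1.217 to 1.222). On knockout Fth1 was 1.12-fold higher and Ftl1 1.25-fold lower in macrophages, so their ratio moved. In macrophages there were 2.69 (NTT), 2.30 (RTT), 1.90 (RTT_ROSA26) and 2.65 (RTT_PTGS12KO) Fth1 UMIs per Ftl1 UMI, and in monocytes 3.75, 3.38, 2.73 and 3.21. RTT_ROSA26 had the lowest ratio in both.

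**Figure D4:**
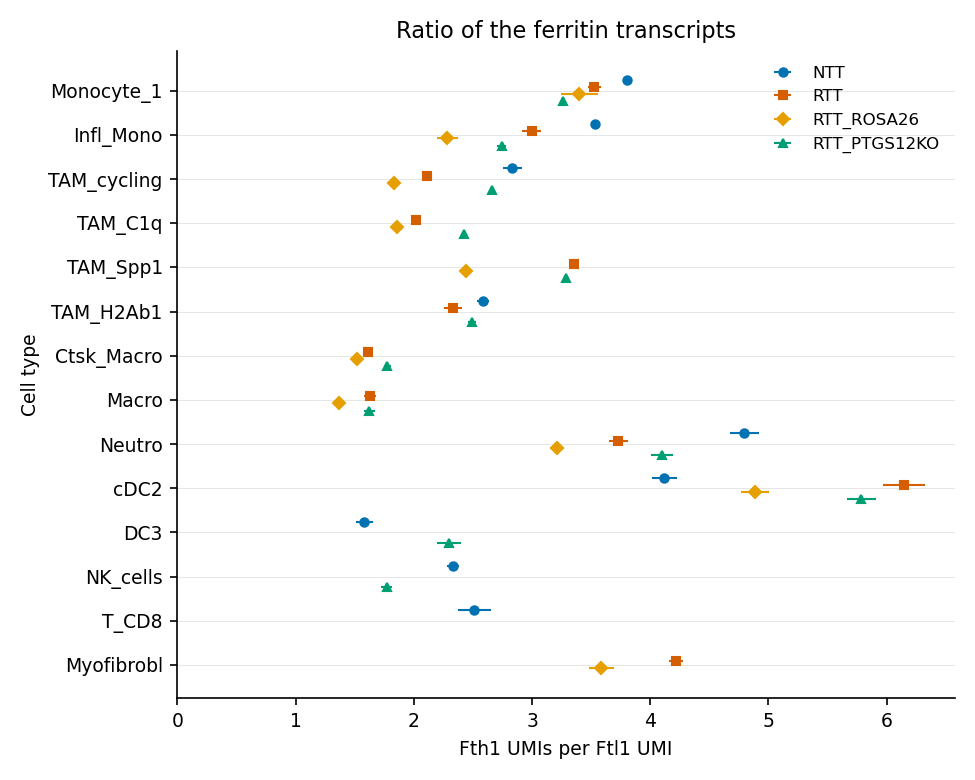
Fth1 UMIs per Ftl1 UMI by cell type, 1 point per sample with at least 50 cells, with exact 95% intervals of the counts. The ratio was 4.12 to 6.15 in cDC2, above the other types except in NTT, where Neutro was at 4.79 and cDC2 at 4.12, and it was 1.37 to 1.63 in Macro and 1.52 to 1.77 in Ctsk_Macro.

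Across cell types the ratio spread wider than across samples. Neutro held the most Fth1, at 28804, 24568, 22036 and 26995 CPM in the 4 samples, and 3.21 to 4.79 Fth1 per Ftl1. TAM_C1q held the most Ftl1, at 8468, 8805 and 7816 CPM in RTT, RTT_ROSA26 and RTT_PTGS12KO. In cDC2 the ratio was 4.12, 6.15, 4.89 and 5.79. NK cells and T_CD8 were lowest in both chains, with 3182 to 3790 CPM of Fth1 in NK cells and 2819.9 CPM in T_CD8 of NTT. Ftl1 shares reads with the processed pseudogene Ftl1-ps1, so its level and its ratio to Fth1 are uncertain. The size of the Ftl1-ps1 row does not give the extent of this. In pattern Ftl1-ps1 was the gene most like Ftl1 (r = 0.99). Slc7a7 (r = 0.92) and Lgmn (r = 0.91) came next, and Fth1 was closest to Il13ra1 (r = 0.88), Cebpb (r = 0.86) and Gla (r = 0.86).

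Slc40a1, ferroportin, the one known exporter of iron from cells, lies on chromosome 1 from 45908068 to 45926523. It was scarce everywhere. Macrophages held 7.38 CPM in NTT (30 UMIs), 16.4 CPM in RTT (1604 UMIs), 8.66 CPM in RTT_ROSA26 (863 UMIs) and 1.50 CPM in RTT_PTGS12KO (135 UMIs). The order of the resistant tumours was that of Trf. NTT was 2.22-fold below RTT (1.55 to 3.31), the knockout 5.77-fold below RTT_ROSA26 (4.81 to 6.97), and RTT_ROSA26 1.89-fold below RTT (1.74 to 2.06). The knockout contrast lay under the minimum mean level of 10 CPM and did not enter the counts of genes below.

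TAM_C1q was at 22.8, 13.2 and 3.47 CPM in RTT, RTT_ROSA26 and RTT_PTGS12KO, 3.80-fold lower on knockout (3.0 to 4.87). TAM_cycling was at 1.40, 21.5, 8.68 and 1.00 CPM in the 4 samples, 8.66-fold lower on knockout (6.26 to 12.3). TAM_H2Ab1 went the other way in NTT, with 26 UMIs (12.6 CPM) against 1 UMI in RTT, although the loads of NTT spanned 0 to 27.5 CPM. The value of TAM_cycling in NTT rests on few UMIs too, as 1 UMI there was 0.702 CPM. On these few UMIs the 2 clusters differed between NTT and RTT in opposite directions. With the 2 weighted equally the gene lay under the minimum level, and in load 3 alone the log2 ratio in macrophages was −0.09 in place of −1.05. Neutro was the only type with over 18 CPM in each sample, at 18.9, 29.9, 23.6 and 27.1 CPM. Thinned shares of macrophages with a UMI were 1.63%, 3.58%, 1.58% and 0.366%, while no NK cell of NTT or RTT_PTGS12KO held 1, which allows up to 0.544% of 676 cells and 1.22% of 301. The macrophage share of RTT_PTGS12KO lay under the limit for its NK cells. Unthinned shares were 3.57%, 11.6%, 7.11% and 1.61%. No list of alike genes was drawn up for Slc40a1, since its mean over the groups was under 10 CPM.

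Lcn2, lipocalin 2, binds siderophores, the iron chelators of bacteria, and lies on chromosome 2 from 32384633 to 32388252. It was nearly a neutrophil gene. Neutro held 963 CPM in NTT, 913 CPM in RTT, 573 CPM in RTT_ROSA26 and 405 CPM in RTT_PTGS12KO, and the loads of RTT spanned 510.1 to 1221 CPM. The knockout was 1.42-fold below RTT_ROSA26 in Neutro (1.28 to 1.56) and RTT_ROSA26 1.59-fold below RTT (1.48 to 1.72), and the loads of RTT_PTGS12KO (304 to 573 CPM) and RTT_ROSA26 (470 to 718 CPM) overlapped. The 9 neutrophil genes, S100a8 among them, summed there to 53538, 54411, 34435 and 42738 CPM.

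Neutrophils made up 1.19% to 2.14% of cells per sample and 41.8% to 75.2% of Lcn2 UMIs, the lowest share in RTT_PTGS12KO. Infl_Mono came next, at 10.4, 44.0, 36.5 and 48.1 CPM, and the other types stayed under 21 CPM. After thinning, 58.5%, 65.7%, 49.7% and 48.7% of Neutro had a UMI, against 1.63% of NK cells in NTT and 1.33% in RTT_PTGS12KO. Unthinned they were 70.8%, 76.7%, 72.6% and 65.0%, at median depths of 7381 to 11085.5 UMIs. In monocytes Lcn2 was at 8.44, 14.1, 23.0 and 9.43 CPM, 2.43-fold lower on knockout (1.52 to 3.70) from 23 UMIs in RTT_ROSA26. Under equal weights of Monocyte_1 and Infl_Mono its direction turned, with a log2 ratio of 0.32. S100a8 (r = 0.93), Wfdc21 (r = 0.92) and Stfa2l1 (r = 0.91) were most like Lcn2.

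Counted together, genes were called where log2(CPM + 1) differed by 1 or more, that is 2-fold, among those with a mean of at least 10 CPM in the 2 samples. In macrophages of NTT against RTT, 8 of the 10 genes were above this level, with 1 higher (Slc11a1) beside 5.1% of all genes tested and 2 lower (Trf and Slc40a1) beside 3.27%. In monocytes 7 were tested, with none higher beside 1.69% and 1 lower (Trf) beside 1.31%. On knockout against RTT_ROSA26, 6 were tested in macrophages, with 1 higher (Slc11a1) beside 2.26% and 1 lower (Trf) beside 0.889%. In monocytes 7 were tested, with none higher beside 1.58% and 3 lower (Trf, Hp and Lcn2) beside 1.92%. Between the resistant controls 9 were tested in macrophages, with none higher beside 0.524% and 1 lower (Hp) beside 0.68%, and 7 in monocytes, with 1 higher (Hp) beside 1.65% and none lower beside 1.58%. Several of these calls rested on the mix of cell types, on a load or on the scale. With cell types weighted equally the log2 ratio of Slc11a1 was 0.82 in macrophages of NTT against RTT and 0.74 on knockout, that of Hp in monocytes on knockout was −0.37 in place of −1.56, that of Lcn2 there 0.32 in place of −1.20, and that of Hp in macrophages between the controls −0.60 in place of −1.09. On knockout 1 of the 3 calls in monocytes (Trf) was then left. Slc40a1 in macrophages of NTT was at −1.05, and at −0.09 in load 3 alone and −0.40 without the 5% of cells with the highest UMI totals.

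Whether the 10 genes moved as a set was not tested. Their median log2 ratio was −0.39 in macrophages and 0.11 in monocytes of NTT against RTT, where the median of all genes was 0.00 and 0.03. On knockout it was −0.18 and 0.05 beside −0.08 and −0.01, and between the controls −0.23 and 0.18 beside 0.06 and 0.01. These medians cover only the genes above the minimum level.

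**Figure D5:**
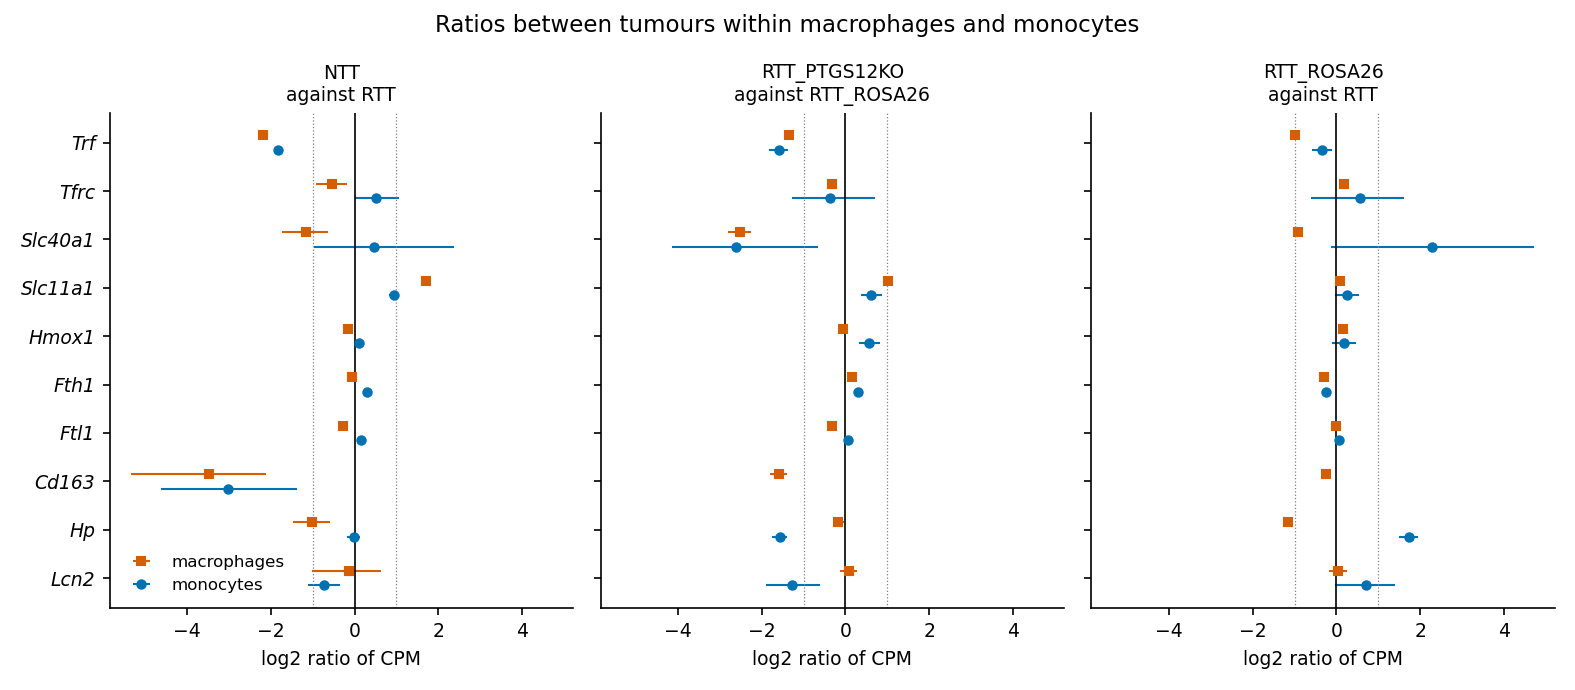
The log2 ratio of CPM of each gene in macrophages (squares) and monocytes (circles) in the 3 contrasts, with exact conditional 95% intervals of the counts and dotted lines at 2-fold. In the first 2 panels Trf lies left of the dotted line in both classes, and Slc11a1 lies right of 0, past the 2-fold line in macrophages and short of it in monocytes, while the ferritin genes sit near 0 throughout. Points that rest on a sample with under 4 UMIs are not drawn.

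The wider pathway was described with 40 other iron and haem genes and 14 targets or regulators of NRF2 and BACH1, which control Hmox1, Slc40a1 and the ferritin genes. Of the iron and haem genes 25 or 26 were above the minimum level per contrast. In NTT against RTT 1 was lower in macrophages, Lrp1, a receptor for haem bound to haemopexin, at 134 against 322 CPM (2.41-fold lower, 2.21 to 2.63). In monocytes 1 was lower, Hfe, a partner of the transferrin receptors, at 15.4 against 33.2 CPM (2.16-fold, 1.82 to 2.56). On knockout 1 was higher in macrophages, Fbxl5, the iron sensor that marks an iron regulatory protein for breakdown, at 132 against 54.7 CPM (2.42-fold, 2.34 to 2.50). In monocytes 1 was higher, Blvrb, a biliverdin reductase, at 514 against 216 CPM (2.38-fold, 2.08 to 2.74). Between the controls none reached 2-fold. These single calls stand beside 3.27% of all genes lower in macrophages and 1.31% in monocytes of NTT, and 2.26% higher in macrophages and 1.58% in monocytes on knockout. Between the controls 0.524% of all genes were higher and 0.68% lower in macrophages, and 1.65% and 1.58% in monocytes. Within types, no iron and haem gene was called lower in Monocyte_1 of NTT against RTT, so Hfe was not, and 2 were in Infl_Mono. On knockout 2 were called higher in Monocyte_1 and none in Infl_Mono, so Blvrb was not called there. Infl_Mono was 86 of the 144 monocytes of RTT_ROSA26 and 635 of the 4015 of RTT_PTGS12KO. The part of this mix in the calls of these genes was not tested.

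The medians of these genes were −0.24 and −0.04 in macrophages and monocytes of NTT against RTT, −0.18 and −0.03 on knockout, and 0.04 and 0.09 between the controls. Of the NRF2 and BACH1 genes 11 or 12 were tested and none was higher, beside 0.524% to 5.1% of all genes over the contrasts and classes. The 3 single lower calls that follow stand beside 3.27%, 0.68% and 1.92% of all genes. Slc7a11, the cystine importer, was lower in macrophages of NTT than of RTT, at 45.8 against 101 CPM (2.21-fold, 1.91 to 2.57). It was also lower in RTT_ROSA26 than in RTT, at 49.9 CPM (2.03-fold, 1.96 to 2.10), which is between tumours that differ in neither targeted gene. Gsr, glutathione reductase, was lower in monocytes of the knockout, at 90.8 against 244 CPM (2.69-fold, 2.36 to 3.06). Infl_Mono made up 635 of the 4015 monocytes of the knockout and 86 of the 144 of RTT_ROSA26, and the part of this mix was not tested. Within types, 2 of the NRF2 and BACH1 genes were called lower on knockout in Infl_Mono and none in Monocyte_1. The medians of this group were 0.02 and 0.31, −0.04 and −0.21, and −0.05 and 0.37 in the same order.

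Of the other lists in macrophages, the 7 melanoma genes summed to 16.2 to 20.1 CPM, nearly all of it Mitf, with Tyr and Tyrp1 at 0 in each sample. The 9 neutrophil genes summed to 349 CPM in NTT and 182 to 209 CPM in the resistant tumours. The 10 genes of S and M phase were at 616, 504, 974 and 1073 CPM in macrophages of NTT, RTT, RTT_ROSA26 and RTT_PTGS12KO, higher in NTT than in RTT, higher on knockout than in RTT_ROSA26 and higher in RTT_ROSA26 than in RTT. In each of the 3 contrasts this was the direction of Slc11a1 and the opposite of that of Trf in macrophages. Their part in those differences was not tested.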

How the data were processed

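Live CD45+ cells of 4 samples, each from 1 tumour per the labels or from pooled tumours per the study's legends, were labelled with multiplexing oligos, pooled and loaded 3 times for 3′ scRNA-seq. The matrix the authors deposited holds whole UMI counts, not normalized, and a second table gives each cell's sample and cell type. Per the study's methods and the submitters' processing notes, reads were counted with Cell Ranger against mm10, a cell was kept if it had over 1000 genes, less than 15% of its UMIs mitochondrial and less than 40% ribosomal, and Seurat 4.3.0 was used for the clusters. All 33368 cells met the gene minimum. Total UMIs per sample were 69332488 (NTT), 116698480.0 (RTT), 110210968 (RTT_ROSA26) and 146829376 (RTT_PTGS12KO).

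UMIs were summed per sample and cell type or class, divided by the total to give CPM, and compared as ratios with Clopper-Pearson intervals, and CPM values carry exact Poisson intervals. PCR duplicates were collapsed by UMI, and intervals cover counting error only. Genes were called on log2(CPM + 1), as a 2-fold difference among genes with a mean of 10 CPM. Neighbouring types in the order of levels were compared by their range over samples. Ratios are given where both samples held over 3 UMIs. Cells were thinned to 3000 UMIs for shares. No doublet caller was run: cells of different samples are separated by the oligos, and leaving out the 5% of cells with the highest UMI totals was an alternative. Other alternatives were CPM + 10, no minimum, TMM factors (edgeR 4.0.16, R 4.3.3), cells with over 1500 genes and under 10% mitochondrial UMIs, each load alone, ferritin, mitochondrial and ribosomal UMIs out of the total, cell types weighted equally, and Ftl1-ps1 added to Ftl1. Python 3.11.15, numpy 2.4.6, scipy 1.17.1, pandas 2.3.3 and matplotlib 3.10.9 were used, and steps were tested on simulated data. The 10 genes and the other lists were chosen with earlier results of these data known. The text names all 10 genes, up to 4 called genes of the other lists per direction, and the 3 genes most alike in pattern, of which 1 is not reported here. No protein sequence was used here.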

Additional observations from a re-analysis of the deposited data

Results flagged for a closer look

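Some of the 10 genes differed in opposite directions in different cell types of the same contrast, with intervals clear of no change on both sides. With 1 sample per group these differences were not tested. They are given as the difference between the log2 ratios of the pair of types.

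Hp in RTT_ROSA26 against RTT was 3.33-fold higher in monocytes (271 against 81.6 CPM) and 2.24-fold lower in macrophages (9.97 against 22.3 CPM), a difference of 2.81. By cell type the same contrast ran from 2.13-fold higher in Monocyte_1 to 1.56-fold lower in TAM_Spp1, a difference of 1.71. In NTT against RTT, Hp was 1.69-fold higher in TAM_cycling (14.0 against 8.29 CPM) and 1.52-fold lower in Infl_Mono (121 against 185 CPM), a difference of 1.30.

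Hmox1 on knockout was 4.02-fold higher in Monocyte_1 (195 against 48.5 CPM) and 1.50-fold lower in TAM_cycling (109 against 163 CPM), a difference of 2.56. Between the controls RTT_ROSA26 and RTT it was 1.34-fold higher in TAM_cycling and 2.14-fold lower in Monocyte_1, a difference of 1.50. In NTT against RTT it was 1.81-fold higher in TAM_H2Ab1 (203 against 112 CPM) and 1.74-fold lower in TAM_cycling (69.5 against 121 CPM), a difference of 1.64. RTT_ROSA26 is shared by the contrasts that involve Monocyte_1.

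Slc11a1 in RTT_ROSA26 against RTT was 1.38-fold higher in TAM_Spp1 (83.1 against 60.4 CPM) and 2.25-fold lower in Ctsk_Macro (13.4 against 30.2 CPM), a difference of 1.57.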

How the results depend on the processing

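No paired analysis was possible because the design holds 1 sample per group, and no replicate could be left out. RTT_ROSA26 held only 144 monocytes, so its monocyte values are the least precise. Counts of the 10 genes called are given where they moved. With CPM + 10, 1 was lower in macrophages of NTT against RTT, 0 were higher in macrophages on knockout and 0 were lower in macrophages of RTT_ROSA26 against RTT. With no minimum level, 2 were lower in monocytes of NTT, 3 in macrophages and 5 in monocytes on knockout, and 2 were higher in monocytes of RTT_ROSA26. TMM factors gave 2 lower in macrophages of RTT_ROSA26. Without the 5% of cells with the highest UMI totals, 0 were higher in macrophages on knockout and 2 lower in macrophages of RTT_ROSA26. Load 1 alone gave 2 lower in monocytes of NTT, 1 higher in monocytes on knockout and 1 lower in monocytes of RTT_ROSA26. Load 2 alone gave 0 higher in macrophages and 1 in monocytes on knockout, and 2 lower in macrophages of RTT_ROSA26. Load 3 alone gave 1 lower in macrophages of NTT, 0 higher in macrophages on knockout and 3 higher in monocytes of RTT_ROSA26. With cell types weighted equally, 0 were higher and 1 was lower in macrophages of NTT, 2 were lower in monocytes of NTT, 0 were higher in macrophages on knockout and 1 was lower in monocytes on knockout. The stricter filter on cells, the reduced total and the added pseudogene moved no count. Over the 11 alternatives the log2 ratio of Trf kept its direction, from −2.56 to −2.02 in macrophages and −2.28 to −1.69 in monocytes of NTT and from −1.41 to −1.20 and −1.81 to −1.39 on knockout. That of Slc11a1 ran from 0.82 to 1.82 in macrophages of NTT and from 0.74 to 1.13 on knockout, so its call on knockout, at 1.01, sits on the threshold. Lcn2 in monocytes on knockout reversed to 0.32 with cell types weighted equally, from −1.20. Hp there went from −1.56 to −0.37 and lost its call. The cause was not tested.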

Other observations

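Red-cell transcripts were uneven in the knockout tumour. The 5 genes summed to 1499 CPM in its neutrophils, where the other samples held 4.37 to 8.63 CPM, and Hmox1 in those neutrophils was at 205 CPM beside 151 to 188 CPM in the others. In Infl_Mono they summed to 201 CPM in NTT, 6.28 CPM in RTT and 34.9 CPM in RTT_PTGS12KO, and none of the 5 was detected in the 86 cells of RTT_ROSA26.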
